A study of Homo sapiens with 6 samples.

Results

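The genes described here encode the machinery that stores, releases, pumps and exchanges calcium. Their RNA was compared between the mammary epithelial line MCF10A and MCF10A-SNAI1, a line made from MCF10A cells to express SNAI1. The described genes are 10 of the 18417 that the arrays measured with a named probe set. The 10 are the inositol trisphosphate receptors ITPR1, ITPR2 and ITPR3, the pumps ATP2A2, ATP2B1 and ATP2B4, the exchanger SLC8A1, and the entry genes STIM1, ORAI1 and TRPC1. They were selected by symbol, and each had 1 probe set, so none was lost and no choice between probe sets had to be made. ATP2B1 and SLC8A1 were more than 2-fold higher in MCF10A-SNAI1 cells and ITPR3 was more than 2-fold lower. TRPC1 was higher, and ATP2B4 and ATP2A2 lower, by less than 2-fold.

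Cells keep free calcium in the cytosol low by moving it into the endoplasmic reticulum and out across the plasma membrane. Phospholipase C makes inositol trisphosphate (IP3), which opens IP3 receptors in the reticulum membrane and lets stored calcium out. STIM proteins sense the emptied store and open ORAI channels in the plasma membrane, SERCA pumps refill the store, and PMCA pumps and sodium-calcium exchangers extrude what remains. In the mammary gland, calcium entry, storage and extrusion also carry calcium into milk.

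Total RNA was hybridized to 6 Affymetrix HuGene arrays, of which 3 carried RNA from the untransfected line and 3 from MCF10A-SNAI1. MCF10A is an immortalized, non-tumorigenic culture of human mammary epithelium. The MCF10A-SNAI1 line was made from MCF10A cells in another laboratory, with a SNAI1-Flag plasmid and puromycin selection. A CMV enhancer and a chicken beta-actin promoter drove the plasmid. The untransfected cells were obtained separately, and the sources used here do not say whether the MCF10A-SNAI1 line was made from that stock. Whether the MCF10A-SNAI1 line is 1 clone is not said either. Both lines grew in mammary epithelial medium with cholera toxin. No array carried an empty-vector line, so the plasmid, the selection and the history of the line cannot be told apart from SNAI1 itself. RNA came from whole cultures, in which fewer cells expressing a gene and less of its RNA per cell cannot be told apart.

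The deposited values are log2 signals, with array medians between 6.04 and 6.09. SNAI1 was at 5.76 ± 0.037 (SD, n = 3) in MCF10A and at 10.51 ± 0.015 (SD, n = 3) in MCF10A-SNAI1 cells, as the labels say. The 7 measured markers of mammary epithelium lay between 9.05 and 13.53 in MCF10A, and 5 of them were called lower in MCF10A-SNAI1 cells. Of 8 mesenchymal markers, 6 were called higher. Of 4 leukocyte markers, CD14 was called higher, from a mean of 5.87 to 6.89, and the others were not called. PTPRC lay at 3.23 and 3.22, below the 20th percentile of all values, CD3E at 4.60 and 4.44, and CSF1R at 6.03 and 5.61. The part of other cell types in the results was not tested. None of 4 endothelial and 3 adipocyte markers was called. A call required more than a 2-fold difference together with a limma p under 0.01 after Benjamini-Hochberg adjustment over all 33297 probe sets. These p-values measure the spread between arrays, which may be partly technical. Positive log2 fold changes are higher in MCF10A-SNAI1, and levels are compared only within a gene, since probe sets differ in brightness.

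Of the 10 genes, 2 were called higher, 1 was called lower and 7 were not called. Of all genes measured, 5.64% were called in either direction, 3.1% higher and 2.54% lower. With the p threshold of 0.01 alone, 3 of the 10 were higher and 3 lower, against 23.2% of all genes in either direction, 12.1% higher and 11.2% lower. With a threshold of 0.05 the same 6 passed, against 32.8% of all genes. All 10 lay above the 20th percentile of all values, 3.94, in both lines, and among genes above the median level the shares were 7.59% called and 33.4% at any fold. The median absolute log2 fold change of the 10 was 0.50, beside 0.15 over all genes and 0.225 among genes above the median level. Their median signed change was -0.046, beside -0.013 over all genes. The arrays of the lines did not overlap for 8 of the 10 genes, 3 above and 5 below. Over all genes 48.3% did not overlap, 23.7% above and 24.6% below. Among genes above the median level, 7220 of 11219 did not overlap. The smallest p that an exact two-sided permutation of 3 arrays against 3 can reach is 0.1, and each gene without overlap had it.

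**Figure D1:**
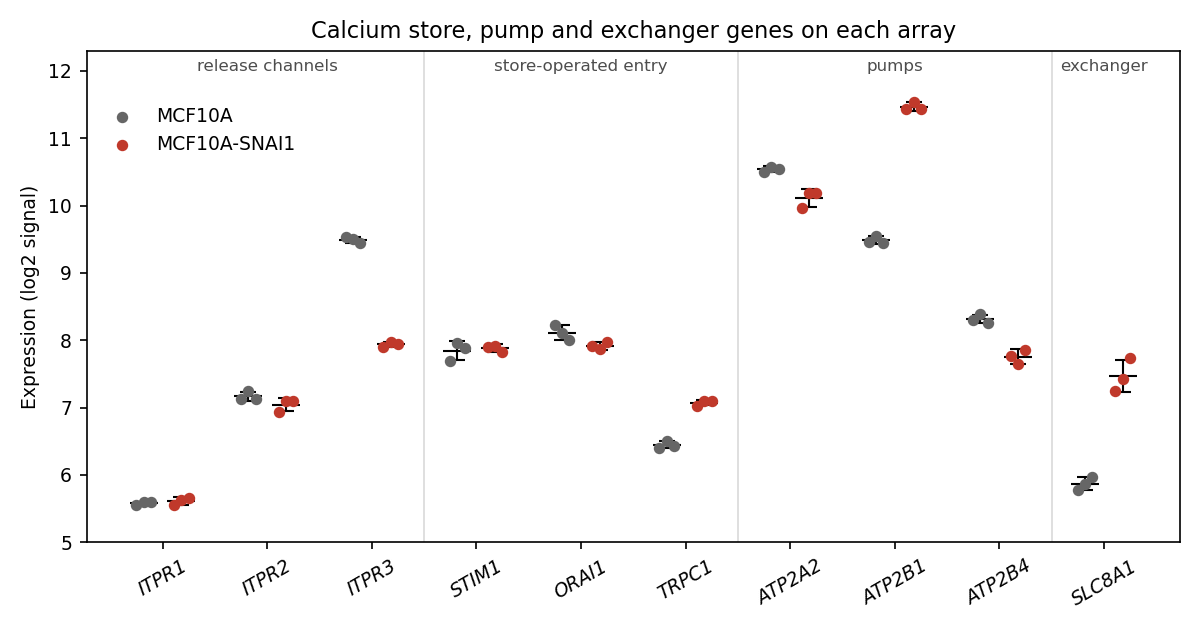
Deposited log2 values of the 10 genes (vertical axis), grouped by role along the horizontal axis, in MCF10A (grey) and MCF10A-SNAI1 cells (red), where each point is 1 array and black marks show the mean and SD (n = 3). ITPR3 lies near 9.49 in MCF10A and 7.94 in MCF10A-SNAI1 cells, ATP2B1 near 9.48 and 11.47, and SLC8A1 near 5.87 and 7.47.

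Of the 3 IP3 receptor genes, ITPR3 was called lower and the others passed no threshold. ITPR3 encodes the receptor subtype that is prominent in many epithelia. Its probe set, 8118734, was at 9.53, 9.51 and 9.44 on the MCF10A arrays and at 7.90, 7.97 and 7.95 on the MCF10A-SNAI1 arrays. All MCF10A-SNAI1 arrays were low, with a gap of 1.47 between the lines and little spread within either. ITPR3 was 2.94-fold lower (log2 fold change -1.55 ± 0.059 (SE), limma adjusted p = 4.70e-06), a change that ranked 468 of 18417 genes by absolute size.

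ITPR1, the subtype best known from neurons, was at 5.55, 5.59 and 5.59 in MCF10A and at 5.55, 5.62 and 5.66 in MCF10A-SNAI1 cells. The arrays overlapped and no change was called (log2 fold change 0.035, 95% interval -0.11 to 0.18, adjusted p = 0.767 from limma). ITPR2, the subtype with the highest affinity for IP3, was at 7.12, 7.25 and 7.13 in MCF10A and at 6.93, 7.09 and 7.10 in MCF10A-SNAI1 cells. Its arrays were parted by a gap of only 0.021 (log2 fold change -0.13, 95% interval -0.31 to 0.051, adjusted p = 0.317 from limma). The intervals of ITPR1 and ITPR2 exclude a 2-fold change of signal in either direction. ITPR1 was below the median of every array, and no detection call was at hand.

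Within each array the level of ITPR3 was subtracted from those of its paralogs, which cancels whatever an array shares between probe sets. The log2 difference of ITPR1 minus ITPR3 was -3.98, -3.92 and -3.85 in MCF10A and -2.34, -2.35 and -2.29 in MCF10A-SNAI1 cells, a shift of 1.59. For ITPR2 minus ITPR3 the shift was 1.43, and for ITPR1 minus ITPR2 it was 0.16. None of these 3 differences overlapped between the lines (exact two-sided permutation test, p = 0.1 each, adjusted p = 0.117 over 7 pairs of genes). ITPR3 thus fell relative to both other receptor genes, by a shift that was many times the spread between arrays of a line, which was 0.075 or less.

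Of STIM1, ORAI1 and TRPC1, which act when the store empties, TRPC1 was the gene that passed the p threshold. TRPC1 encodes a cation channel of the plasma membrane that takes part in receptor- and store-operated calcium entry. It was at 6.40, 6.51 and 6.43 in MCF10A and at 7.02, 7.10 and 7.10 in MCF10A-SNAI1 cells. Every MCF10A-SNAI1 array was higher, at a log2 fold change of 0.63 (1.55-fold, SE 0.062, limma adjusted p = 3.78e-04), which passed the p threshold but not the fold threshold.

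STIM1, the calcium sensor of the reticulum membrane, was at 7.69, 7.96 and 7.89 in MCF10A and at 7.90, 7.92 and 7.82 in MCF10A-SNAI1 cells. The arrays overlapped, with MCF10A replicate 1 lower than the other 5 (log2 fold change 0.036, 95% interval -0.16 to 0.24, adjusted p = 0.841 from limma). Without that array the value was -0.042, so STIM1 had no stable direction. ORAI1, the pore subunit that STIM1 opens, was at 8.22, 8.11 and 8.0 in MCF10A and at 7.91, 7.87 and 7.98 in MCF10A-SNAI1 cells. Its arrays were parted by 0.022, and the difference did not pass the test (log2 fold change -0.19, 95% interval -0.37 to -0.013, adjusted p = 0.128 from limma). Within arrays, STIM1 minus ORAI1 overlapped between the lines (shift 0.23, exact permutation p = 0.2), whereas ORAI1 minus TRPC1 shifted by -0.82 without overlap (exact permutation p = 0.1, adjusted p = 0.117).

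**Figure D2:**
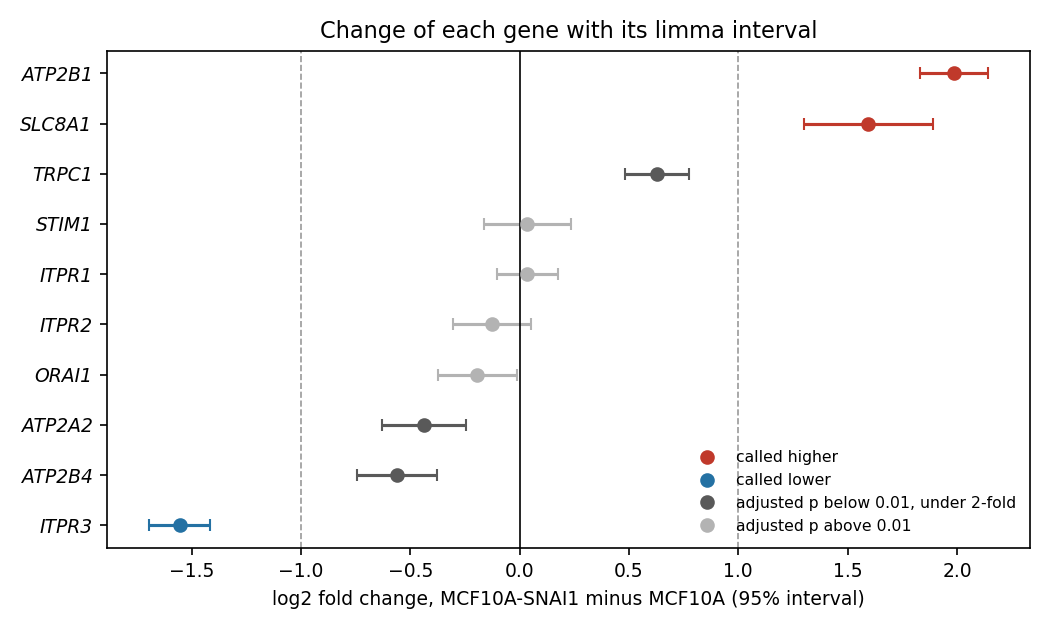
Log2 fold change of each of the 10 genes, MCF10A-SNAI1 minus MCF10A (horizontal axis), with its 95% interval from limma over 3 arrays per line; genes are ordered by change along the vertical axis and dashed lines mark 2-fold. ATP2B1 and SLC8A1 lie beyond the upper line and ITPR3 beyond the lower one, while the intervals of ITPR1, ITPR2 and STIM1 cross 0.

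The plasma membrane pumps changed in opposite directions. ATP2B1 encodes PMCA1, the broadly expressed pump that drives calcium out of the cell at the cost of ATP. Its probe set, 7965359, was at 9.46, 9.55 and 9.44 in MCF10A and at 11.43, 11.54 and 11.44 in MCF10A-SNAI1 cells. All MCF10A-SNAI1 arrays were high, 1.88 or more above every MCF10A array. The rise was 3.96-fold (log2 fold change 1.99 ± 0.065 (SE), limma adjusted p = 2.44e-06), which ranked 157 of 18417 genes from the most raised and was the largest absolute change among the 10.

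ATP2B4, which encodes the related pump PMCA4, was at 8.30, 8.39 and 8.26 in MCF10A and at 7.77, 7.64 and 7.86 in MCF10A-SNAI1 cells. It was lower on every MCF10A-SNAI1 array, by 0.56 on average (log2 fold change -0.56 ± 0.077 (SE), limma adjusted p = 0.0019), which is under 2-fold. The methods' t-test put it above the p threshold (adjusted p = 0.0137 after Benjamini-Hochberg). Within arrays, ATP2B1 minus ATP2B4 was 1.17, 1.16 and 1.18 in MCF10A and 3.67, 3.90 and 3.58 in MCF10A-SNAI1 cells. The balance of these probe sets moved by 2.55 toward ATP2B1, without overlap (exact permutation p = 0.1, adjusted p = 0.117 over 7 pairs).

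ATP2A2 encodes SERCA2, the pump that returns calcium to the reticulum in most cells. It was at 10.50, 10.58 and 10.55 in MCF10A and at 9.96, 10.19 and 10.18 in MCF10A-SNAI1 cells. Every MCF10A-SNAI1 array was lower, and replicate 1 was the lowest of them (log2 fold change -0.44 ± 0.081 (SE), limma adjusted p = 0.0072). This p crossed 0.01 when any single array was left out (adjusted p between 0.0104 and 0.0312), when arrays were centred on their medians (0.0104) and with the methods' t-test (0.0323), while the log2 fold change stayed between -0.48 and -0.36. Within arrays, ATP2A2 minus ATP2B1 moved from 1.03, 1.03 and 1.11 in MCF10A to -1.48, -1.35 and -1.26 in MCF10A-SNAI1 cells. The difference moved by -2.42 without overlap (exact permutation p = 0.1, the smallest this test can reach, adjusted p = 0.117). Most of this shift was the rise of ATP2B1, at a log2 fold change of 1.99. ATP2B4, the other plasma membrane pump, had a log2 fold change of -0.56 beside the -0.44 of ATP2A2, and that pair was not tested.

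SLC8A1 encodes NCX1, which exchanges calcium for sodium across the plasma membrane and is best known from heart muscle. Its probe set, 8051762, was at 5.78, 5.86 and 5.97 in MCF10A and at 7.25, 7.42 and 7.73 in MCF10A-SNAI1 cells. All MCF10A-SNAI1 arrays were higher by 1.28 or more, with the widest spread of any of the 10 genes in that line (SD 0.24, n = 3). The rise was 3.02-fold (log2 fold change 1.60 ± 0.13 (SE), limma adjusted p = 1.35e-04). When 64 was added to each signal before the logarithm, which shrinks changes of dim probe sets, the log2 fold change was 0.98 and fell just under the fold threshold (adjusted p = 6.22e-04). The size of this rise therefore depends on how the background was treated, and no detection call was at hand.

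**Figure D3:**
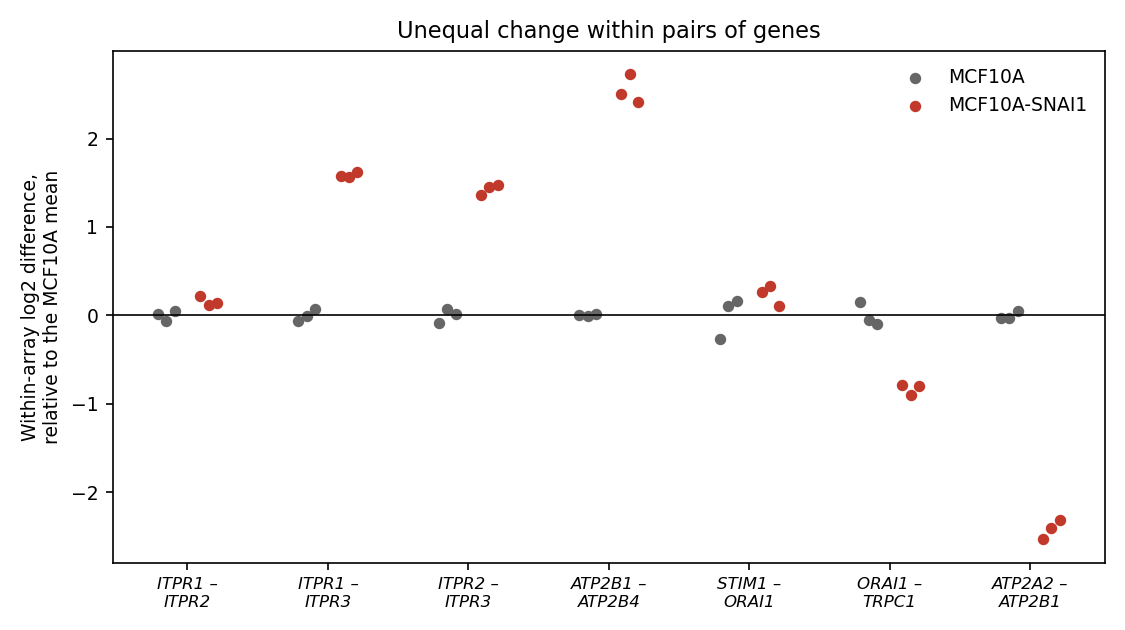
Log2 difference between the 2 genes of a pair within each array, relative to the mean of the MCF10A arrays (vertical axis), for 7 pairs (horizontal axis), with a point per array in MCF10A (grey) and MCF10A-SNAI1 cells (red). ATP2B1 minus ATP2B4 lies 2.55 higher in MCF10A-SNAI1 cells and ATP2A2 minus ATP2B1 differs by -2.42, while STIM1 minus ORAI1 overlaps between the lines.

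SNAI1 is a zinc finger repressor that binds E-box sequences, of which CACCTG is the best known form. RefSeq promoter windows of 300 bases, from 250 before to 50 after a start site on GRCh38.p14, were at hand for 8 of the 10 genes, with 16 windows in all, and not for ITPR2 and ORAI1. None of the 16 windows held CACCTG or its reverse complement CAGGTG, beside 20.6% of all 35116 windows. The general E-box CANNTG, which reads the same way on both strands and includes the other motif, was in 12 of the 16 and in 68.7% of all windows. It was chosen after the first search. The 250 bases before the outermost RefSeq start of the 3 called genes are shown, because these are the genes that changed most, with each CANNTG in capitals:
ITPR3: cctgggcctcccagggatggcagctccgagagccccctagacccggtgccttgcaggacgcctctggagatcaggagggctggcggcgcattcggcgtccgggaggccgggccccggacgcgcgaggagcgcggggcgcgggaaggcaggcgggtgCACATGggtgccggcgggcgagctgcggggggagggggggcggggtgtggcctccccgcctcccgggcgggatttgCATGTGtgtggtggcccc
ATP2B1: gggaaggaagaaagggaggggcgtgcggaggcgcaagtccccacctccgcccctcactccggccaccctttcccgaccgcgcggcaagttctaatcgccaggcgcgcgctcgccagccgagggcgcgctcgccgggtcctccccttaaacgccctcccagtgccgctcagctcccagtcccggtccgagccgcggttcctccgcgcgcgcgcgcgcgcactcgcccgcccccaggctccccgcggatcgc
SLC8A1: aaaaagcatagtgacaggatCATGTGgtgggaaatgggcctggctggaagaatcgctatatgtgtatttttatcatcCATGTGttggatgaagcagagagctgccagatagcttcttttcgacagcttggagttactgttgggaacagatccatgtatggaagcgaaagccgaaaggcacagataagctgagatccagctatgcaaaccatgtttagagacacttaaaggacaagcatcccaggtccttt
These lie at chr6:33621072-33621321 on the plus strand, at chr12:89709367-89709616 on the minus strand and at chr2:40512436-40512685 on the minus strand. The stretch before ITPR3 held CACATG and CATGTG, that before SLC8A1 held CATGTG at 2 places, and that before ATP2B1 held no CANNTG. A match is a string of letters and not a measured site, and the windows say nothing about sequence farther away.

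The closest relatives of these genes mostly stayed under the thresholds. Of the other pump genes and their regulators, 8 of 8 were measured and none passed in limma or with the methods' t-test, and 0 had an unadjusted limma p below 0.05, the lowest being 0.0569 for ATP2C1. ATP2A1 and ATP2A3, the other SERCA genes, had log2 fold changes of 0.052 and 0.077, and the PMCA genes ATP2B2 and ATP2B3 had 0.035 and -0.0093. The Golgi pump ATP2C1 was at 8.81 ± 0.071 in MCF10A and 8.97 ± 0.073 in MCF10A-SNAI1 cells (SD, n = 3, adjusted p = 0.169 from limma). Among the 8 other exchanger genes, SLC8A2 and SLC8A3 had log2 fold changes of 0.0013 and -0.022. Arrays overlapped for both, and the 95% intervals of -0.17 to 0.18 and -0.23 to 0.18 exclude a change of signal as large as that of SLC8A1. Mean levels in MCF10A were 4.63 for ATP2A1, 5.81 for ATP2B2, 5.21 for ATP2B3, 5.82 for SLC8A2 and 4.60 for SLC8A3. These lay below the median of every array, also in MCF10A-SNAI1 cells, and PLN was in the lowest 20% of values. Without detection calls, a change near 0 on such probe sets does not tell an unchanged RNA from an absent one.

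SLC8B1, the sodium-calcium exchanger of mitochondria, was the gene of the exchanger list that was called, 1 of 8 genes beside 2.54% of all genes called lower. It was at 7.95, 7.69 and 7.77 in MCF10A and at 6.48, 6.60 and 6.57 in MCF10A-SNAI1 cells. It was 2.39-fold lower, opposite to SLC8A1 (log2 fold change -1.25 ± 0.085 (SE), limma adjusted p = 6.63e-05). With 64 added to each signal it fell by 0.87 on the log2 scale and was no longer called. SLC24A1, a potassium-dependent sodium-calcium exchanger that was picked out after its values were seen, was at 5.65, 5.78 and 5.83 in MCF10A and at 6.19, 6.35 and 6.34 in MCF10A-SNAI1 cells. It passed the p threshold under 2-fold without overlap (log2 fold change 0.54 ± 0.078 (SE), limma adjusted p = 0.0021), and the other 6 genes of the list passed neither threshold. The methods' t-test put SLC24A1 above the p threshold (adjusted p = 0.0150).

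Relatives of ORAI1 passed the p threshold, although their difference from ORAI1 was not tested. ORAI2 was at 7.03, 7.10 and 7.25 in MCF10A and at 7.96, 7.84 and 7.92 in MCF10A-SNAI1 cells (log2 fold change 0.78 ± 0.078 (SE), limma adjusted p = 4.06e-04). ORAI3 was at 7.51, 7.47 and 7.41 and at 7.92, 7.86 and 7.86 (log2 fold change 0.42 ± 0.060 (SE), limma adjusted p = 0.0022). Both encode ORAI channel subunits, and neither overlapped between the lines or reached 2-fold. The limma adjusted p of ORAI3 crossed 0.01 without MCF10A replicate 2 (0.0103), MCF10A replicate 3 (0.0117) or MCF10A-SNAI1 replicate 2 (0.01002). STIM2, the sensor that responds to smaller losses of stored calcium, had a log2 fold change of 0.46 and narrowly missed the p threshold (adjusted p = 0.0107 from limma). It passed under some alternatives, such as quantile normalization (limma adjusted p = 0.0095), and not with the methods' t-test (adjusted p = 0.0508). Of 17 measured genes of this list, 4 passed the p threshold as higher and none as lower, all under 2-fold, beside 12.1% and 11.2% of all genes at any fold. Among the relatives of TRPC1, TRPC4 and TRPC6 had log2 fold changes of -0.066 and 0.039 and overlapped between the lines, TRPC4 in the lowest 20% of values in both.

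Upstream of the receptors, the list of IP3 production and removal held 16 genes, G protein subunit genes among them. Of the 16, 2 were called higher and none lower, beside 3.1% and 2.54% of all genes. PLCB4, a phospholipase C that answers to G protein-coupled receptors, was at 5.66, 5.58 and 5.53 in MCF10A and at 7.04, 7.29 and 7.26 in MCF10A-SNAI1 cells (log2 fold change 1.61, adjusted p = 2.33e-05 from limma). PLCE1, a phospholipase C that is regulated by Ras, was at 4.62, 4.77 and 4.54 and at 5.68, 6.12 and 5.69 (log2 fold change 1.19, adjusted p = 6.93e-04 from limma). Both were higher on every MCF10A-SNAI1 array. Their log2 fold changes were 0.91 and 0.45 with 64 added to each signal, and the methods' t-test did not call PLCE1 (adjusted p = 0.0147). Under 2-fold, 2 more genes of the list passed the p threshold as higher and 3 as lower. Of all 18417 genes, 1649 and 1592 did so.

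Of 13 measured genes on the list of calcium-binding proteins of the reticulum, 2 were called higher and none lower, beside 3.1% and 2.54% of all genes. CALU encodes calumenin, a calcium-binding protein of the secretory pathway, and was at 9.33, 9.42 and 9.36 in MCF10A and at 10.27, 10.49 and 10.51 in MCF10A-SNAI1 cells. Its log2 fold change of 1.05 was close to the fold threshold (SE 0.082, limma adjusted p = 1.29e-04) and was 0.98 with 64 added to each signal. NUCB1 encodes nucleobindin 1, which is found mainly in the Golgi and not in the reticulum, and rose from 9.31, 9.54 and 9.47 to 10.81, 10.77 and 10.79 (log2 fold change 1.35 ± 0.074 (SE), limma adjusted p = 2.57e-05). A further 3 genes passed the p threshold as higher under 2-fold, and none as lower, beside 1649 and 1592 of all 18417 genes.

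The remaining lists held no called gene. Of 14 measured genes of other release channels and their regulators, 1 passed the p threshold as higher and 3 as lower, all under 2-fold. Of 8 measured genes of mitochondrial calcium uptake, 1 passed it as higher and 1 as lower. Of 17 measured genes of calmodulin, calcineurin and their targets, 4 passed it as higher and 2 as lower. Over all genes, 12.1% passed the p threshold as higher and 11.2% as lower, at any fold. Over all 8 lists, 101 of 111 genes were measured, of which 4 were called higher and 1 lower, beside the 5.64% of all genes called in either direction. Their median absolute log2 fold change was 0.16, beside 0.15 over all genes and 0.50 over the 10 genes above. Among genes above the median level the median absolute change was 0.225.

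**Figure D4:**
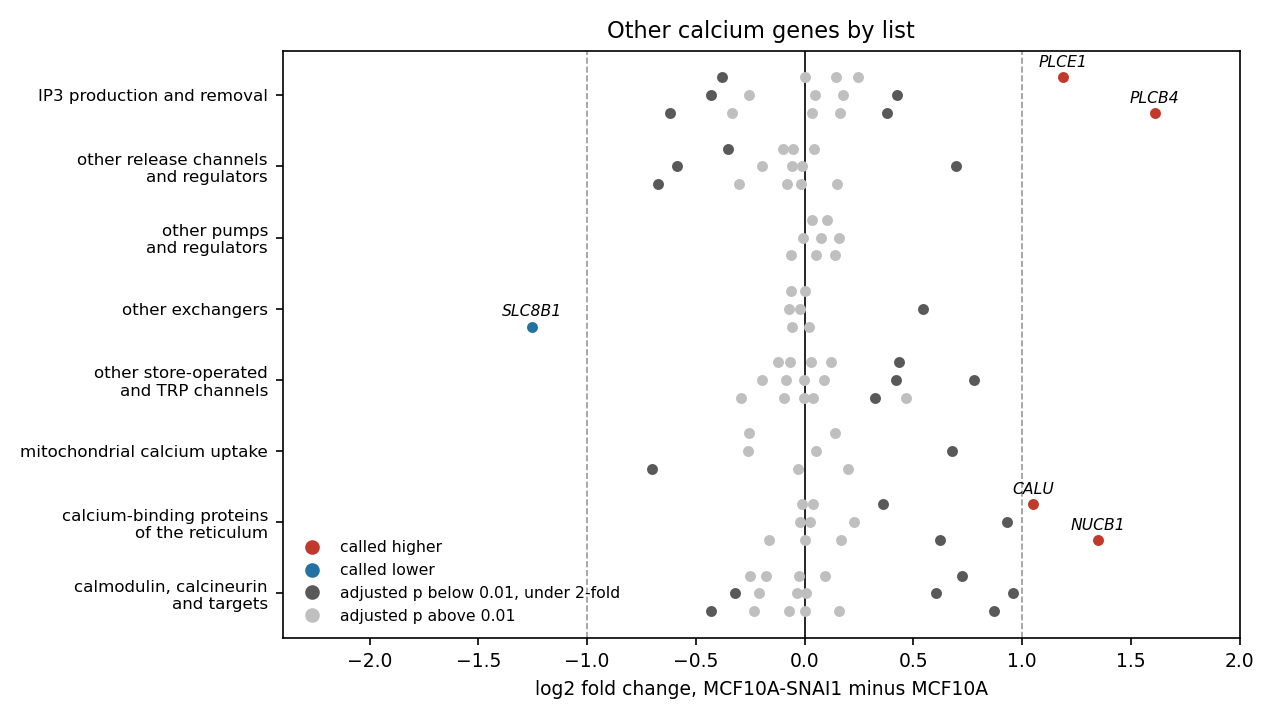
Log2 fold change, MCF10A-SNAI1 minus MCF10A (horizontal axis), of the 101 other calcium genes measured, with a point per gene and a row per list (vertical axis); dashed lines mark 2-fold and called genes are named. PLCB4, PLCE1, CALU and NUCB1 lie above 2-fold and SLC8B1 below, and the other pumps lie near 0.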

How the data were processed

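The authors hybridized RNA of 3 MCF10A and 3 MCF10A-SNAI1 samples, described as independently reproduced, and deposited 1 log2 value per probe set and array. For normalization the article gives GC RMA in GeneSpring. GCOS, MAS5 and Affymetrix Expression Console 1.1 appear in the processing notes of the submitters. The program behind the deposited table, its filter and its genome build are not given in the sources used here, and detection calls were not at hand. A single symbol was attached to 19460 of 33297 probe sets, several to 1754, and none was at hand for 12083. Genes were named from the first kind, and 18389 of 18417 symbols were checked through RefSeq on GRCh38.p14.

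The deposited values were used as they were. Differential expression was tested in R 4.3.3 with limma 3.58.1 (lmFit, eBayes), with no covariate and p-values adjusted by Benjamini-Hochberg across the whole table, and calls used the thresholds of the article. The scripts were tested on simulated data. Pairs of genes were compared by their within-array difference, with an exact two-sided permutation test. Arrays give no read depth, and 3 per line limit the precision. Named were the 10 genes, SNAI1, called genes of 8 calcium lists and paralogs of the 10. The leukocyte genes, SLC24A1 and the genes of the closing section, were chosen after their values were seen. The genes, lists and tests were chosen with earlier results of these data known. Alternatives were quantile normalization, median centring, an offset of 64, leaving out single arrays, a replicate block, limma with trend or robust settings, the methods' t-test, removal of dim probe sets, looser thresholds and other rules for probe sets. A logarithm of linear values was not needed and not run, because the values are log2.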

Additional observations from a re-analysis of the deposited data

How the results depend on the processing

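ITPR3 and ATP2B1 kept their direction and stayed called under all 19 alternatives, at log2 fold changes between -1.58 and -1.34 and between 1.90 and 2.02. SLC8A1 lost its call under 1 alternative, the offset of 64, where its log2 fold change was 0.98. With that offset 1 of the 10 genes was called higher, and 1 of the other calcium genes was called higher and 0 lower. PLCB4, PLCE1, CALU and SLC8B1 were the genes that dropped out. The offset shrinks changes of dim probe sets by construction, whereas CALU moved only from 1.05 to 0.98, across the fold threshold. The number of the 10 genes that were lower at an adjusted p below 0.01 went from 3 to 1 with the methods' t-test, which left ITPR3, and to 2 when any single array was left out, each time through the loss of ATP2A2. At an adjusted p below 0.05 with no fold threshold, 3 of the 10 genes were lower, and 22 other calcium genes were higher and 14 lower. With a log2 fold change above 0.58 added, these counts were 13 and 5. Over all genes, 1038 were called, 559 with the offset, 6038 at 0.05 without a fold threshold and 2606 with 0.58. SLC8A2 changed sign with quantile normalization and with median centring, at -0.0087 and -0.010.

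Without single arrays, values near 0 changed sign, with ranges of -0.042 to 0.091 for STIM1, -0.027 to 0.094 for ATP2A1, -0.0089 to 0.16 for ATP2A3, -0.034 to 0.15 for ATP2B2, -0.091 to 0.050 for ATP2B3, -0.040 to 0.053 for SLC8A2, -0.096 to 0.019 for SLC8A3, -0.12 to 0.0089 for TRPC4 and -0.011 to 0.10 for TRPC6. ITPR1 was not tested with the filter above the median, which removed it.

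The arrays share replicate numbers. Whether the numbers pair them is not said in the sources used here, and the values below do not settle it. Deviations of same-numbered arrays from their line's mean correlated at 0.12, 0.12 and -0.0062 across probe sets, and 4 of 6 arrays correlated best with their own number. With the replicate number as a block, 1028 genes were called in place of 1038, and 1 of the 10 genes, ITPR3, was lower at an adjusted p below 0.01, because ATP2B4 and ATP2A2 were at 0.0130 and 0.0126. The block changed no 2-fold call among the 10 genes, SNAI1, the 5 called calcium genes and the paralogs. It was not tabulated for the other genes named. Without detection calls, signal over background could not be set for any gene.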

Other observations

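Genes of the mitochondrial uniporter differed in opposite directions. MCU, its pore subunit, was at 8.28, 8.19 and 8.06 in MCF10A and at 8.81, 8.86 and 8.88 in MCF10A-SNAI1 cells (log2 fold change 0.68 ± 0.074 (SE), limma adjusted p = 6.12e-04). MCUB, a paralog that dampens the channel, was at 8.75, 8.96 and 8.84 and at 8.08, 8.27 and 8.09 (log2 fold change -0.70 ± 0.085 (SE), limma adjusted p = 0.0010). Neither overlapped between the lines or reached 2-fold. The methods' t-test put MCUB above the p threshold (adjusted p = 0.0121). The other 6 measured genes of mitochondrial calcium uptake did not pass it in limma. Among proteins at the reticulum, RCN1, a calcium-binding relative of calumenin, was higher at a log2 fold change of 0.93, and TMCO1, which forms a channel that lets calcium leak from an overfilled store, was higher at 0.69 (adjusted p = 6.63e-05 and 2.34e-04 from limma). CAMK2D, a calmodulin-dependent kinase subunit, was higher at 0.96, just under the fold threshold (limma, adjusted p = 4.37e-05). HOMER2, a scaffold protein that binds IP3 receptors, was lower at -0.68, and TPCN1, a channel of endosomes, was lower at -0.59 (adjusted p = 7.47e-04 and 3.98e-04 from limma). These genes were chosen after their values were seen.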
